A study of Mus musculus with 16 samples.

Results

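The sarcomere, the contractile unit of heart muscle, is bounded by Z-discs, where the ends of titin and of the actin thin filaments are anchored. A list of 42 mouse genes for this scaffold was followed through the ventricles of embryos with hypoplastic left heart syndrome (HLHS), a malformation in which the left side of the heart stays small, and of their littermate controls. The list was drawn up with earlier results of these data known. Shares of members called are therefore set beside those of all genes as description only. The members were chosen by gene symbol and matched to the Ensembl identifier of each row. All 42 were found among the 37991 genes of the count table, where they took 1.63% to 2.39% of the counts of a library. They comprise 17 genes of titin and the Z-disc core, 7 of the thin filament, 6 of attachment sites and desmin, 4 chaperones and assembly factors, 4 stress and signalling genes and 4 ubiquitin ligase genes.

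Each ventricle of 8 C57BL/6 embryos was sequenced as an RNA-seq library, 16 in all, from total RNA. The HLHS group held 3 embryos, 1 from embryonic day E13.5, another from E14.5 and the last from E17.5. The control group held 5, of which 1 was taken at E13.5, while E14.5 and E17.5 each gave a pair. Each stage is 1 litter, so that stage and litter cannot be told apart, and the labels give the phenotype of an embryo but neither its genotype nor any treatment. The titles of the E14.5 samples carry the letters AP, which those of the other stages lack. Whatever these letters mark cannot be told apart from stage either. Libraries are named by ventricle, phenotype, stage and, among controls, by replicate number: 1 is the E13.5 embryo, 2 and 3 are the E14.5 embryos and 4 and 5 the E17.5 embryos, while HLHS replicates 1, 2 and 3 follow the same order of stages.

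Titin spans from the Z-disc to the middle of the sarcomere, and at the Z-disc it meets alpha-actinin, which crosslinks the thin filaments, and the cap protein telethonin. LIM and PDZ domain proteins, filamin C and the intermediate filament desmin tie Z-discs to one another and to the cell membrane, where they share partners with the attachment sites of integrins. Several of these proteins also move to the nucleus or hold signalling enzymes, and the Z-disc is therefore described as a sensor of stretch as well as an anchor. Tropomyosin lines the thin filament, while leiomodins and tropomodulin act at its pointed end.

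Library totals ran from 17081273 to 28648645 counts. Normalised read counts are given in CPM, each library's counts rescaled to a common total with the trimmed mean of M values, and differences as log2 fold changes with their standard error (SE). A gene was called where its adjusted p, from the quasi-likelihood test of edgeR and adjusted over all genes tested by Benjamini and Hochberg, was under 0.05. The labels name separate embryos as replicates. Heart muscle markers were abundant, at 18220 to 28860 CPM summed over 8 genes, whereas 7 of 9 skeletal muscle markers had a median under 1 CPM. The library of the right ventricle of control 4 held 33.3 CPM of Xist beside 245 CPM of Y-linked genes, against at most 1.20 CPM of Xist in the other 7 libraries with Y-linked genes at 198 CPM or more.

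Levels of the members spanned a wide range. Per kilobase of annotated exon, the median over control libraries was highest for Actn2, the sarcomeric alpha-actinin, at 475 CPM per kb, followed by the small heat shock protein gene Hspb7 at 389, Tpm1 at 334 and Cryab, the alphaB-crystallin gene, at 313. Titin (Ttn) ranked 29 on this scale with 34.6 CPM per kb. Nrap, which codes for a protein of nascent attachment sites, had no count in any of the 16 libraries, where a limit of 3 counts is at most 0.176 CPM. Ankrd2 had 0 to 5 counts and Myot, the myotilin gene, 0 to 21. Nrap and Ankrd2 were tested in no comparison, and Myot was too low in the HLHS left and the HLHS side comparisons. The cardiac troponin C gene Tnnc1, which heart muscle needs, was also at 0 to 0.128 CPM, so a level near 0 in this table is not read as absence of the transcript.

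In the HLHS left ventricle 17 of the 39 members tested differed from control, 11 higher and 6 lower. Over all 15979 genes tested 12.8% were called, 6.17% higher and 6.61% lower. The median log2 change was -0.02 over the members and 0.01 over all genes. The higher members were 5 genes of the Z-disc core, 2 of the thin filament (Lmod2 and Tpm2), 2 of attachment sites and desmin (Xirp2 and Des) and 2 of stress and signalling (Rcan1 and Ankrd1). The lower ones were Itgb1bp2, Nebl, Fhl2, Fbxl22 and the chaperone and assembly genes Smyd1 and Unc45b. The 12 members with the largest called differences on either side are described with their levels in each library.

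Xirp2, whose protein binds actin at attachment sites and intercalated discs, changed most. Its left ventricular level was 2.20 CPM in the E13.5 control and 9.14 in the HLHS littermate, 3.38 and 3.65 against 15.9 at E14.5, and 14.53 and 14.94 against 28.4 at E17.5. The HLHS embryo was above its littermates in each litter, and the log2 change was 1.64 ± 0.21 (SE), or 3.12-fold, with an adjusted p of 0.0021 (edgeR). Right ventricular levels were 5.28 against 3.00 at E13.5, 5.61 and 5.40 against 3.23 at E14.5, and 28.6 and 23.8 against 25.7 at E17.5. There the HLHS embryo was lower in the E13.5 and E14.5 litters and lay between its littermates in the last, and the change of -0.42 ± 0.16 did not pass (adjusted p 0.153, edgeR).

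Itgb1bp2 codes for melusin, a muscle protein that binds the integrin beta-1 tail and is known for a role in the response to pressure load. Left ventricular levels were 70.3 CPM in the control against 33.9 in the HLHS embryo at E13.5, 93.2 and 90.5 against 36.4 at E14.5, and 176 and 169 against 82.6 at E17.5. On the right they were 80.5 against 33.6, 96.8 and 109 against 50.1, and 193 and 176 against 106 at the same stages. Every HLHS library was below all littermate controls of its side. The log2 change was -1.16 ± 0.06 on the left, a 2.23-fold lower level (adjusted p 6.14e-05, edgeR), and -1.005 ± 0.089 on the right, 2.01-fold lower (adjusted p 0.00159, edgeR). The gene lies on the X chromosome, and with the sex of the embryo as a term the changes were -1.15 and -0.95 (adjusted p 0.000236 and 0.00146, edgeR). By Xist and Y-linked reads, HLHS embryos 1 and 2 and controls 2 and 5 were female and the others male. At E13.5 the HLHS embryo was female and its control male, so sex and phenotype cannot be told apart in that litter.

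Des, the desmin gene, stood at 702 CPM against 885 in the HLHS left ventricle at E13.5, at 651 in both controls against 1079 at E14.5, and at 946 and 859 against 1038 at E17.5. All 3 HLHS left ventricles were above their littermates, with a log2 change of 0.44 ± 0.10 (adjusted p 0.0185, edgeR). The right ventricle gave 905 against 812 at E13.5, 707 and 814 against 767 at E14.5, and 1175 and 990 against 951 at E17.5. That difference, -0.11 ± 0.09, did not pass (adjusted p 0.531, edgeR), and at E14.5 the HLHS embryo lay between its littermates.

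**Figure D1:**
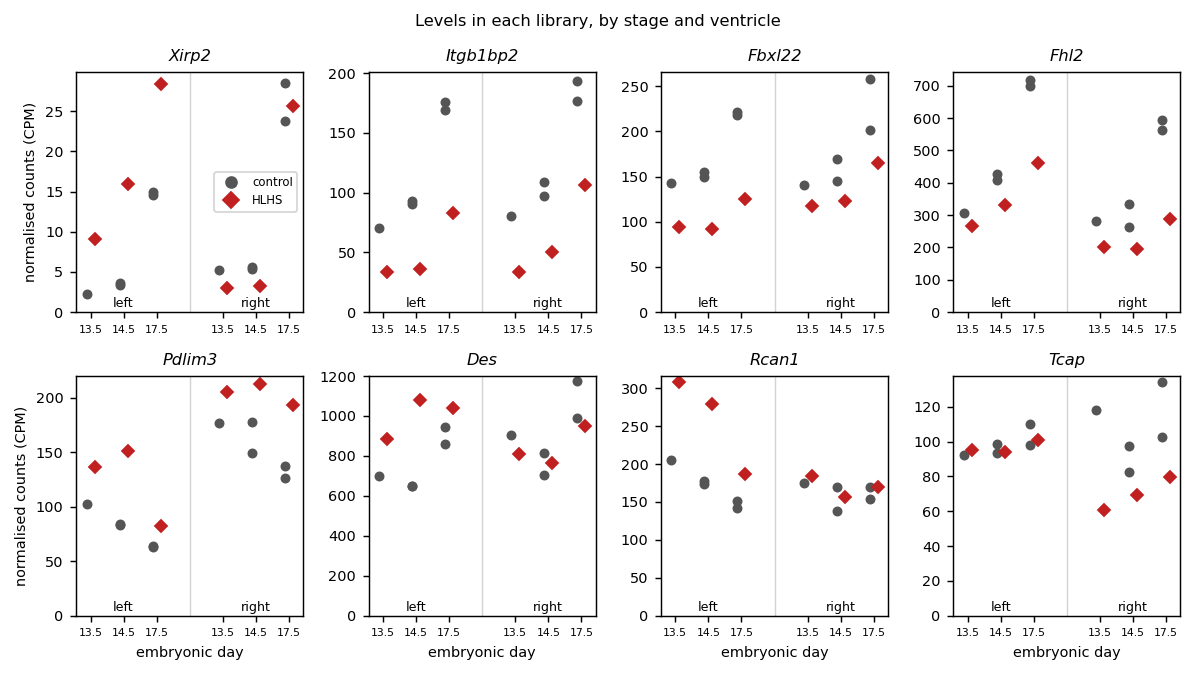
Normalised read counts in CPM (vertical axes, from 0) of 8 genes in each of the 16 libraries, by embryonic day and ventricle (horizontal axes); grey circles are controls and red diamonds HLHS embryos. Itgb1bp2, Fbxl22 and Fhl2 are below the littermate controls at each stage in both ventricles, whereas the Xirp2 points of HLHS embryos are above them on the left, from 9.14 to 28.4 CPM.

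Of 16 Z-disc core genes tested on the left, 5 were called (Pdlim7, Pdlim3, Pdlim1, Myoz2 and Flnc), all higher, while Pdlim5, of the same family as the first 3, was at -0.08 ± 0.09 (adjusted p 0.607, edgeR). Pdlim7 (Enigma) and Pdlim3 (ALP) code for adaptors with PDZ and LIM domains that bind alpha-actinin or tropomyosin. Pdlim7 had 188 CPM in the control against 254.5 in the HLHS left ventricle at E13.5, 117 and 124.5 against 232 at E14.5, and 77.5 and 72.4 against 113 at E17.5. Its right ventricular levels were 178 against 199, 119 and 136.5 against 144, and 93.6 and 91.1 against 122. HLHS libraries were above their littermates on both sides, but only the left change passed, 0.69 ± 0.08 (adjusted p 0.00169, edgeR) against 0.25 ± 0.07 on the right (adjusted p 0.0629, edgeR).

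Pdlim3 rose in both ventricles. On the left it had 102.5 CPM against 136 at E13.5, 83.8 and 83.2 against 151 at E14.5, and 64.4 and 63.0 against 82.3 at E17.5. On the right the levels were 177 against 205, 177.5 and 150 against 213, and 126.5 and 137 against 193, so that the right HLHS libraries lay above all 5 right control libraries. The log2 changes were 0.57 ± 0.09 on the left (adjusted p 0.00441, edgeR) and 0.40 ± 0.08 on the right (adjusted p 0.0208, edgeR).

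Myoz2 codes for calsarcin-1, which links alpha-actinin to calcineurin. Its left ventricular levels were 183 CPM against 261 at E13.5, 193 and 192 against 314.5 at E14.5, and 283.5 and 264 against 296 at E17.5, a log2 change of 0.45 ± 0.10 (adjusted p 0.0189, edgeR). The HLHS excess was smallest in the E17.5 litter. On the right, 215.5 against 203, 171 and 215 against 190, and 364 and 290 against 272 gave -0.13 ± 0.11, which did not pass (adjusted p 0.506, edgeR). Rcan1, an inhibitor of calcineurin whose own transcription follows calcineurin activity, had 205 CPM against 308 on the left at E13.5, 174 and 177.5 against 279 at E14.5, and 143 and 151 against 187.5 at E17.5. All 3 HLHS left libraries were higher (0.53 ± 0.07, adjusted p 0.00179, edgeR), while right ventricular Rcan1 differed little. There it had 175 against 185, 139 and 169 against 157, and 169.5 and 154 against 170 (0.05 ± 0.08, adjusted p 0.723, edgeR).

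Ankrd1 codes for CARP, a cofactor that binds titin's flexible N2A region and rises with strain in muscle. Left ventricular levels were 605 CPM against 1065 at E13.5, 620 and 767 against 1005 at E14.5, and 916 and 750 against 1011 at E17.5. The left HLHS libraries were above all 5 left controls, with a change of 0.52 ± 0.11 (adjusted p 0.0183, edgeR). Right ventricular levels were 692 against 1029, 684 and 986 against 854, and 1607 and 1260 against 1891, where the E14.5 HLHS library lay between its littermates and the change of 0.31 ± 0.15 did not pass (adjusted p 0.227, edgeR).

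Fhl2 and Fbxl22 fell on both sides. Fhl2, a LIM-only adaptor at titin's N2B and at other sites that restrains calcineurin signalling, had 307 CPM against 267 on the left at E13.5, 409 and 427 against 332 at E14.5, and 717 and 700 against 462 at E17.5. Its right ventricular levels were 281 against 201, 264 and 334 against 196, and 593 and 562 against 288. Each HLHS library was below its littermates, and the log2 changes were -0.40 ± 0.08 on the left (adjusted p 0.0138, edgeR) and -0.71 ± 0.11 on the right (adjusted p 0.0103, edgeR).

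Fbxl22, a ubiquitin ligase subunit of the Z-disc that promotes turnover of alpha-actinin and filamin C, had 143 CPM against 93.8 on the left at E13.5, 155 and 149 against 92.3 at E14.5, and 222 and 218 against 125 at E17.5. All left HLHS libraries were below all left controls. The right ventricle had 141 against 118, 145 and 169 against 123, and 257.5 and 201 against 165, again lower in each litter. The changes were -0.72 ± 0.05 (adjusted p 0.000211, edgeR) and -0.37 ± 0.10 (adjusted p 0.0486, edgeR). Of its known substrates, Flnc was called higher on the left and Actn2, at 0.14 ± 0.07, was not called (adjusted p 0.222, edgeR). On the right neither was called, with Actn2 below the control mean in 3 litters and Flnc in 2. These are transcript levels, and turnover of the proteins was not measured.

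The promoters of 4 of these members are shown as examples that hold matches to motifs of muscle regulators. Their transcripts were among those that changed most. Pdlim3 and Myoz2, also described above, have windows with CATTCC and a MEF2 match and are not shown. Sequences are RefSeq windows on GRCm38.p6, 5′ to 3′ in the gene's direction, from 250 bases before to 50 after an annotated start. Capitals mark matches on either strand to the CArG box, the MEF2 site, CATTCC, the core bound by TEAD factors, and AGATAA, the core bound by GATA factors.
Xirp2 promoter, chr2:67445752-67446051, plus strand: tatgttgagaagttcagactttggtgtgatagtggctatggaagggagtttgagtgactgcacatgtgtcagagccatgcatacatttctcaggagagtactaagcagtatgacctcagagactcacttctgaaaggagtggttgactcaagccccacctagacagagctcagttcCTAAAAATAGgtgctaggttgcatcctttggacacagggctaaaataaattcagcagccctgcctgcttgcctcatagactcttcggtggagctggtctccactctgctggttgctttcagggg
Fhl2 promoter, chr1:43196712-43197011, minus strand: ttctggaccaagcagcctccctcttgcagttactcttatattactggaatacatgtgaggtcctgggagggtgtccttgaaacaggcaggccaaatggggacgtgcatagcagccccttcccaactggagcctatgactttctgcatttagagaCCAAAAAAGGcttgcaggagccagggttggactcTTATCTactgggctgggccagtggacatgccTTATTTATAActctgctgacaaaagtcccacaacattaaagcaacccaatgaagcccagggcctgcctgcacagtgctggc
Fbxl22 promoter, chr9:66514544-66514843, minus strand: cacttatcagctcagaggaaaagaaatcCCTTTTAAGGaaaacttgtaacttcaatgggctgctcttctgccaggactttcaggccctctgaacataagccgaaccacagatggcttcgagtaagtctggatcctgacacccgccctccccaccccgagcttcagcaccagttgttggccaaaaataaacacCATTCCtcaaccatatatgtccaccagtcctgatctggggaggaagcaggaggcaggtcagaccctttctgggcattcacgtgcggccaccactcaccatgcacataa
Ankrd1 promoter, chr19:36119795-36120094, minus strand: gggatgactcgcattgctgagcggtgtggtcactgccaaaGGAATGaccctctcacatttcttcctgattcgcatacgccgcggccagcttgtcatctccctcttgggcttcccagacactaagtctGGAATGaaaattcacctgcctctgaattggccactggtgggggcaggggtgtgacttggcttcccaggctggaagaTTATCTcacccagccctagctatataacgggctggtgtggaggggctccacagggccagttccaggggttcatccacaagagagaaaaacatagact

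In Xirp2 the MEF2 match begins 74 bases before the start. The Fhl2 window shown has a CArG match at 96 bases before the start, an inverted GATA core at 62 and a MEF2 match at 31. A further Fhl2 window, at another annotated start and not shown, has a CArG match 31 bases before that start. Fbxl22 has a CArG match at 222 and CATTCC at 58. The Ankrd1 window holds inverted CATTCC at 210 and 123 and an inverted GATA core at 47 bases before the start. Windows were found for 33 of the 42 members, 45 in all since some have several starts. A CArG match was present in 7 of them (15.6%), against 1.63% of 32851 windows of all genes outside chromosome 18, and a MEF2 match in 7 (15.6%) against 3.19%. CATTCC was found in 14 (31.1%) against 14.7%, and AGATAA in 4 (8.89%) against 11.2%. The 2 Ldb3 windows overlap and share 1 CArG match, and the 2 Flnc windows share 1 CATTCC, so these sites are counted 2 times. By gene, 5 of the 33 members had a CArG match, 6 a MEF2 match, 13 CATTCC and 3 AGATAA. None of the matches printed overlap one another. They describe letters in a window and say nothing about whether a factor binds there. Of the 5 members with a CArG match, Fhl2, Fbxl22 and Nebl fell in the HLHS left ventricle, and Vcl and Ldb3, at -0.10 ± 0.07 and -0.14 ± 0.07, were not called (adjusted p 0.376 and 0.248, edgeR).

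Left-sided calls also covered 7 other members, with changes of 0.19 to 0.43 in size. In the thin filament Lmod2, a leiomodin that elongates the filament at its pointed end, rose by 0.43 ± 0.12 (adjusted p 0.048, edgeR), and Tpm2, beta-tropomyosin, by 0.24 ± 0.05. Nebl, the nebulette gene, fell by 0.36 ± 0.09 (adjusted p 0.0306, edgeR). Flnc, filamin C, rose by 0.30 ± 0.07 and Pdlim1 by 0.19 ± 0.05. Smyd1, a methyltransferase needed for myofibril assembly, and Unc45b, the myosin chaperone, fell by 0.32 ± 0.08 and 0.29 ± 0.06 (adjusted p 0.0304 and 0.0124, edgeR). Titin itself (0.19 ± 0.12) and alpha-actinin were among the 22 members tested that were not called.

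In the HLHS right ventricle 11 of 40 members tested were called, 1 higher and 10 lower, where 6.61% of all 16142 genes were called, 3.56% higher and 3.05% lower. The median log2 change of the members was -0.23, with 33 of 40 below 0, against 0.01 over all genes. Besides Itgb1bp2, Fhl2 and Fbxl22, the lower members were the Z-disc genes Tcap, Ldb3 and Nexn, the thin filament gene Lmod3 and the chaperone genes Hspb7, Smyd1 and Unc45b. Pdlim3 was the 1 member called higher.

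Tcap, telethonin, had 118 CPM in the E13.5 control right ventricle against 60.5 in the HLHS littermate, 82.6 and 97.7 against 69.3 at E14.5, and 134 and 103 against 79.6 at E17.5. The right HLHS libraries were below all 5 right controls (-0.61 ± 0.12, adjusted p 0.0221, edgeR). On the left the levels were 92.1 against 95.4, 93.3 and 98.6 against 93.9, and 110 and 97.9 against 101, with no called difference (-0.01 ± 0.06, adjusted p 0.914, edgeR).

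Lmod3, the leiomodin best known from skeletal muscle, had 66.9 CPM against 54.5 on the right at E13.5, 61.3 and 76.7 against 52.2 at E14.5, and 132 and 105 against 78.5 at E17.5, a log2 change of -0.45 ± 0.11 (adjusted p 0.039, edgeR). The right HLHS library was the lowest of each litter. Its left ventricular levels were 60.5 against 66.6, 67.6 and 65.7 against 59.9, and 115 and 103 against 75.9, where the E13.5 HLHS library was the higher one and the change of -0.21 ± 0.11 did not pass (adjusted p 0.227, edgeR). Ldb3, which codes for the PDZ-LIM protein ZASP or Cypher, fell by 0.41 ± 0.07 (adjusted p 0.013, edgeR) and Nexn, nexilin, by 0.31 ± 0.08 (adjusted p 0.0415, edgeR). Hspb7 fell by 0.36 ± 0.08, Unc45b by 0.31 ± 0.07 and Smyd1 by 0.29 ± 0.07 (adjusted p 0.0296, 0.0277 and 0.0378, edgeR). Their counterparts on the left were -0.14 ± 0.07 for Ldb3, -0.17 ± 0.07 for Nexn and 0.09 ± 0.07 for Hspb7, none of them called.

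**Figure D2:**
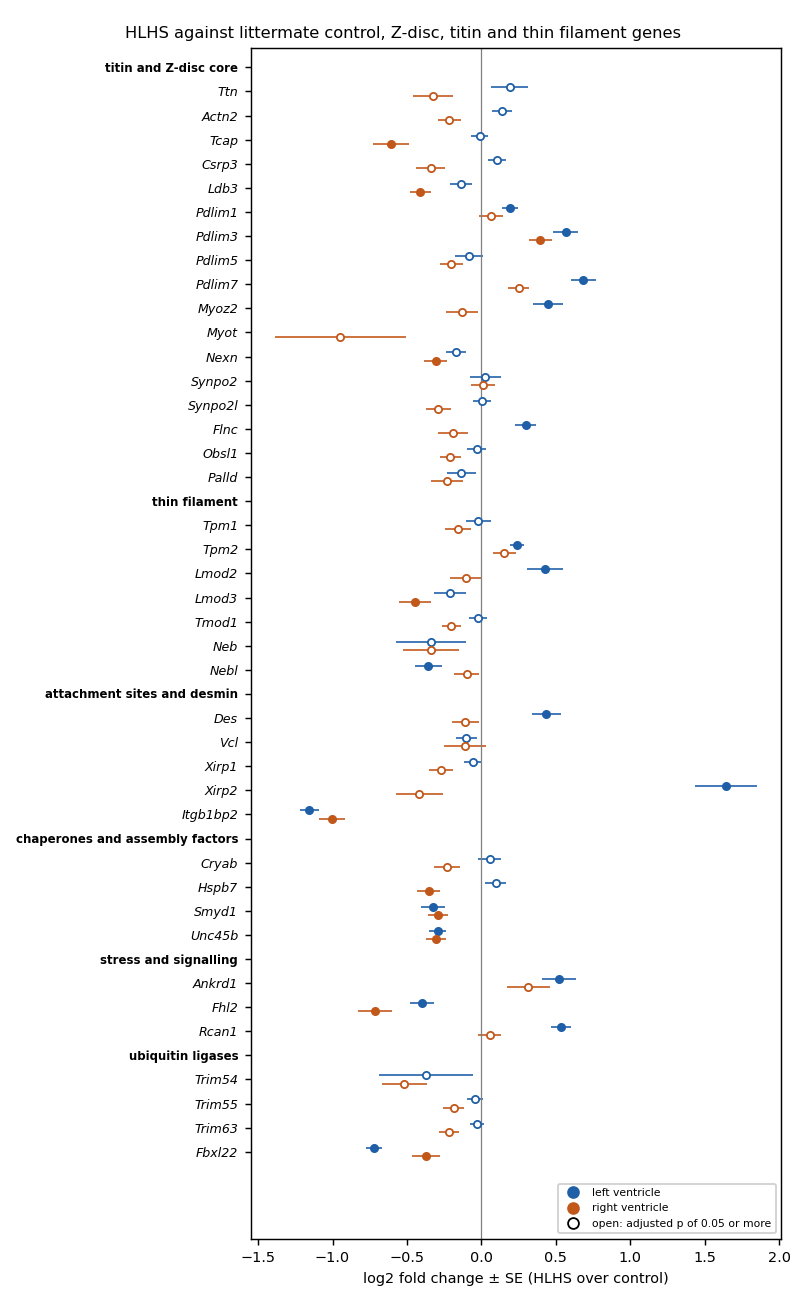
Log2 fold change of HLHS over control with its SE (horizontal axis) for the 40 members with a fit, grouped by role; blue is the left and orange the right ventricle, and filled points have an adjusted p under 0.05. Xirp2 at 1.64 on the left and Itgb1bp2 at -1.16 and -1.005 stand farthest from 0, and 33 of the 40 right ventricular points are below 0.

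Both ventricles came from the same embryos, so the comparisons of the 2 sides are not independent. The 6 members called on both sides, which are 6 of the 17 called on the left and 6 of the 11 on the right, were Pdlim3, higher, and Itgb1bp2, Fbxl22, Fhl2, Smyd1 and Unc45b, lower. Of the 15750 genes tested on both sides 563 (3.57%) were called on both, which are 27.6% of all genes called on the left and 52.8% of those on the right, and 556 of them changed in the same direction. Litter by litter, among the 39 members tested on both sides, 13 were above the control mean in all 3 left HLHS ventricles and 8 below, against 5 above and 25 below on the right. Over all genes tested on both sides, 23.1% were above and 21% below in all 3 litters on the left, and 23.5% above and 19.8% below on the right. In bulk tissue fewer cells of a type and less RNA per cell cannot be told apart.

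Markers of other cell types moved in the same libraries. On the left, erythroid markers were higher (4 of 5 called, median log2 change 0.92), fibroblast markers lower (4 of 7, median -0.30) and endothelial markers lower (3 of 7, median -0.27), and 1 of 8 cardiomyocyte markers was lower with a median of -0.08. Of 7 smooth muscle markers 2 were higher, Tagln at 1.98 ± 0.40 and Cnn1 at 1.60 ± 0.13, and 2 lower, Myh11 at -0.97 ± 0.22 and Smtn at -0.28 ± 0.05, and the list summed to 1335 to 1630 CPM in left controls and 1508 to 3010 in left HLHS libraries. On the right all 8 cardiomyocyte markers were below 0, 3 of them called, with a median of -0.27 and sums of 21110 to 28860 CPM in controls and 18220 to 23750 in HLHS. That median was close to the -0.23 of the members. Of these markers Myl2, Myl3, Myh7, Tnnt2, Tnni3 and Actc1 are themselves sarcomere genes, and they are counted again among the other sarcomere genes below. Right fibroblast markers summed to 2817 to 5622 CPM in controls and 4921 to 6596 in HLHS. The lowest sum was that of the E13.5 control, where Col1a1 was at 493 CPM against 969 to 1185 in the other right controls. By edgeR 0 of 7 were called, with 5 of 7 at an unadjusted p under 0.05 and a median of 0.33. No list had a marker at 0 in all libraries, and the part of these cell types in the members' changes was not tested.

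Single libraries decided many calls, and over all genes the calls fell as well, to as few as 845 on the left and 195 on the right. On the left 7 of the 17 calls (Xirp2, Itgb1bp2, Fbxl22, Pdlim7, Pdlim3, Rcan1 and Fhl2) held whichever library was left out, and the count fell to 10 without the left ventricle of control 2 and to 9 without that of HLHS embryo 2. On the right only the Itgb1bp2 call held in all 8 such fits. The count there fell to 2 without control 1, HLHS embryo 1 or HLHS embryo 3. It fell to 3 without control 3 or HLHS embryo 2, and to 4 without control 5. It was 9 without the right library of control 4, which held Xist and Y-linked reads together. With the sex of the embryo as a term it was 6. Without HLHS embryo 3 the 2 calls were Itgb1bp2 and Xirp2, both lower, and Xirp2 was not called with all libraries. At E13.5 each side has 1 control and 1 HLHS library, and stage is a term. Leaving out either therefore drops that litter from the HLHS comparison. These 2 fits are nearly the same, with 195 and 198 genes called on the right and 1477 and 1495 on the left.

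The HLHS effect was next compared between the ventricles in a fit of all 16 libraries that blocks on the embryo. These fits share libraries with the comparisons above and with those of the 2 sides below. With edgeR 0 of 40 members passed, among 3 of 16508 genes (0.0182%), while 20 members and 1411 genes had an unadjusted p under 0.05. The effect was more positive on the left for 34 members and the median of this difference was 0.21, against -0.01 over all genes. The same differences passed for 8 members with DESeq2 and with no count filter (Xirp2, Tcap, Hspb7, Des, Myoz2, Lmod2, Csrp3 and Flnc) and for 6 when the side difference was allowed to vary with stage (Xirp2, Tcap, Hspb7, Des, Myoz2 and Rcan1). Over all genes 134 passed with DESeq2, 217 with no count filter and 171 when side varied with stage. Limma-voom passed 0 members and 5 genes. Among the marker lists edgeR called 0 genes here, but all 5 erythroid markers (median 0.71) and 5 of 7 fibroblast markers (median -0.61) had an unadjusted p under 0.05.

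Values per embryo show where these differences lie. The members shown were picked for large differences in these same embryos, so groups that do not overlap are no further evidence of a difference. Left minus right on a log2(CPM + 0.1) scale, Xirp2 was -1.23, -0.71, -0.55, -0.97 and -0.67 in controls 1 to 5 and 1.57, 2.27 and 0.15 in HLHS embryos 1 to 3. Xirp2 was thus higher on the right in every control and on the left in every HLHS embryo, least so at E17.5. The fitted difference of effects was 2.02 ± 0.38 (adjusted p 0.099, edgeR), 1.93 ± 0.32 with side varying by stage (adjusted p 0.0209, edgeR) and 2.81 ± 0.23 without the E17.5 HLHS embryo (adjusted p 0.000545, edgeR).

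Desmin gave -0.37, -0.12, -0.32, -0.31 and -0.21 in the controls and 0.13, 0.49 and 0.13 in the HLHS embryos. Lmod2 gave -0.37, -0.13, -0.21, -0.23 and -0.27 against 0.54, 0.01 and 0.32. For both genes the groups did not overlap and the sign turned, although Lmod2 was nearly even between the ventricles of the E14.5 HLHS embryo. The differences of effects were 0.51 ± 0.11 for Des and 0.53 ± 0.11 for Lmod2 (adjusted p 0.125 for each, edgeR).

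Hspb7 was higher on the left throughout, by 0.08, 0.21, 0.09, 0.05 and 0.13 in controls and by 0.54, 0.70 and 0.42 in HLHS embryos. Tcap gave -0.36, 0.17, 0.01, -0.28 and -0.07 against 0.66, 0.44 and 0.34. Neither pair of groups overlapped, and the differences of effects were 0.44 ± 0.09 and 0.58 ± 0.12 (adjusted p 0.125 for each, edgeR). For these 2 genes the left ventricle was close to control and the right was lower, whereas for Xirp2 and Des the left was higher. Right ventricular Xirp2 was also lower in the E13.5 and E14.5 litters, by 0.79 and 0.75, though it was not called. The count of members passing was also 3 without HLHS embryo 3 (Xirp2, Pdlim7 and Rcan1), 1 without control 2 (Tcap, at an adjusted p of 0.04996, edgeR) and 1 with no embryo block (Xirp2). Over all genes 135, 38 and 9 passed in the same fits.

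**Figure D3:**
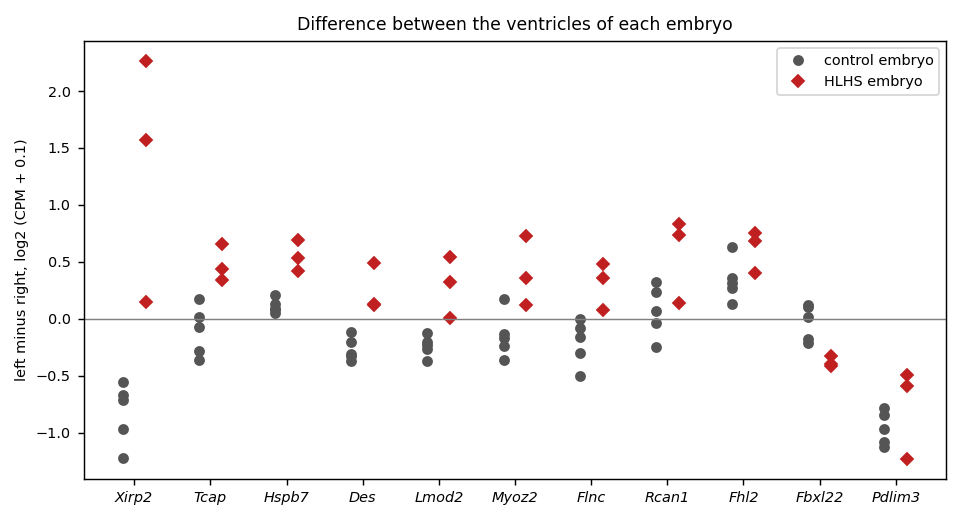
Difference between the left and the right ventricle of each embryo on a log2(CPM + 0.1) scale (vertical axis) for 11 members; grey circles are the 5 controls and red diamonds the 3 HLHS embryos, and the line marks 0. For Xirp2 all controls are below 0, from -1.23 to -0.55, and all HLHS embryos above it, from 0.15 to 2.27.

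Among control embryos alone, left and right ventricle differed for 7 of 40 members, 1 higher on the left and 6 lower, where 6.1% of 16238 genes were called, 2.09% higher and 4.01% lower. The median was -0.11, and 33 of the 40 were below 0. Pdlim3 differed most, with 102.5 CPM left and 177 right at E13.5, 83.8 and 83.2 against 177.5 and 150 at E14.5, and 64.4 and 63.0 against 126.5 and 137 at E17.5. Every right library exceeded every left one, with a log2 difference of -0.96 ± 0.06 (adjusted p 1.85e-05, edgeR). Xirp2 followed with -0.81 ± 0.10 (adjusted p 0.00139, edgeR).

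Trim54, which codes for the ubiquitin ligase MURF3, had 22 to 114 counts per library. Control levels were 2.79 CPM left and 4.75 right at E13.5, 1.73 and 1.91 against 3.25 and 3.25 at E14.5, and 2.74 and 2.28 against 4.47 and 4.11 at E17.5, higher on the right in each embryo. The difference was -0.80 ± 0.12 (adjusted p 0.00357, edgeR), and the HLHS libraries had 3.74, 1.72 and 0.856 left and 3.70, 2.49 and 2.51 right. Ankrd1 (-0.45 ± 0.10), Des (-0.27 ± 0.06) and Lmod2 (-0.24 ± 0.05) were also lower on the left (adjusted p 0.0253, 0.0199 and 0.017, edgeR), and Fhl2 was higher there by 0.34 ± 0.07 (adjusted p 0.0164, edgeR). The calls for Pdlim3, Xirp2 and Trim54 held without any 1 embryo, and the count fell to 3 without control 3 and to 4 without control 5.

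Genes listed as markers of other muscle also differed between the sides of controls. Of 6 atrial markers 4 were lower on the left, with Sln at -3.72 ± 0.33 (adjusted p 0.000261, edgeR), and 1, Tbx5, was higher, with a median of -0.49. The list summed to 566 to 1379 CPM in left and 826 to 1693 in right control libraries. Most of each sum was Myl4 alone, at 367.5 to 1018 CPM left and 522 to 1252 right, so it is not read as an amount of atrial tissue. Of 5 skeletal muscle markers tested 2 were lower on the left, and that list summed to 2.91 to 4.68 CPM on the left and 7.799 to 13.3 on the right. The part of these cells in the members' differences was not tested.

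In the 3 HLHS embryos 6 of 39 members differed between the sides, 4 higher on the left and 2 lower, against 4.04% of 15771 genes, 1.15% higher and 2.89% lower. Higher on the left were Fhl2 (0.64 ± 0.10), Rcan1 (0.59 ± 0.13), Hspb7 (0.57 ± 0.11) and Tcap (0.50 ± 0.09), with adjusted p of 0.013, 0.0468, 0.0255 and 0.0148 (edgeR). Lower there were Pdlim3 (-0.75 ± 0.14) and Fbxl22 (-0.36 ± 0.08), with adjusted p of 0.0208 and 0.0365 (edgeR). Xirp2, 1.26 ± 0.35 and higher on the left in all 3 embryos, did not pass (adjusted p 0.0939, edgeR). The median was 0.14 with 27 of 39 above 0. Pdlim3 was the 1 call that held without any 1 embryo, and the count fell to 3 without HLHS embryo 1 and to 1 without HLHS embryo 2. Of the markers, 4 of 5 erythroid genes were higher on the left of HLHS embryos (median 1.13, sums of 207 to 474 CPM left and 155 to 271 right), and 4 of 7 fibroblast genes were lower there (median -0.52, sums of 3464 to 4234 CPM left and 4921 to 6596 right). Their part in the members' differences was not tested.

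The scaffold genes also changed with stage. Between E14.5 and E17.5 controls, with both ventricles of an embryo summed and 2 embryos a stage, 25 of 40 members were called, 22 higher and 3 lower at E17.5. Over all 16823 genes 30% were called, 15.8% higher and 14.1% lower, and the median was 0.38 for the members and -0.01 for all genes. Xirp2 rose by 2.21 ± 0.11, or 4.63-fold (adjusted p 0.000377, edgeR), Itgb1bp2 by 0.89 ± 0.06 (adjusted p 0.000643, edgeR) and Fhl2 by 0.84 ± 0.09 (adjusted p 0.002, edgeR). In each of the 3, every E17.5 control library was above every E14.5 control library.

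Next came Lmod3 (0.76 ± 0.10), Pdlim5 (0.68 ± 0.07), Myoz2 (0.66 ± 0.10), Ankrd1 (0.60 ± 0.17), Fbxl22 (0.56 ± 0.08), Ldb3 (0.53 ± 0.08), Des (0.51 ± 0.10) and Synpo2l (0.51 ± 0.08). Pdlim5 codes for the Z-disc adaptor ENH, and Synpo2l for an actin-bundling protein of the Z-disc. The remaining 11 higher members rose by 0.25 to 0.47, and no Trim gene passed. The lower members were Pdlim7 (-0.55 ± 0.07), Tpm2 (-0.37 ± 0.06) and Pdlim3 (-0.30 ± 0.08), with adjusted p of 0.00282, 0.00694 and 0.0269 (edgeR). Myot, at 0.91 ± 0.31 on 0 to 21 counts, did not pass (adjusted p 0.0671, edgeR).

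By role, all 5 attachment and desmin genes tested rose with stage, as did 7 of 17 Z-disc core genes, 5 of 7 thin filament genes, 2 of 4 chaperone genes, 2 of 3 signalling genes and 1 of 4 ubiquitin ligase genes, Fbxl22. Titin did not pass (0.27 ± 0.11, adjusted p 0.0986, edgeR). Its E13.5 control libraries, 5768 CPM left and 6138 right, were above the 2559 to 4126 of the E14.5 and the 3695 to 4315 of the E17.5 controls. With 1 control embryo at E13.5 that stage was not tested. Cardiomyocyte markers were higher at E17.5 too, 4 of 8 called with a median of 0.29, and summed to 19220 to 23030 CPM in E14.5 and 25310 to 27070 in E17.5 control libraries, and their part in the members' rise was not tested. Leaving out 1 embryo at a time kept 16 of the 25 stage calls. In the left ventricle alone 30 of 39 members passed, beside 5834 of 15441 genes. In the right alone 16 of 40 members passed, beside 2905 of 15624 genes.

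Set beside the HLHS effect, the 3 members that fell with stage were higher in the HLHS left ventricle (Pdlim7, Tpm2 and Pdlim3). Itgb1bp2, Fhl2, Fbxl22, Nebl and Smyd1 rose with stage and were lower there, while Xirp2, Myoz2, Ankrd1, Des and Lmod2 rose with stage and were higher there. The stage fit shares control libraries with the HLHS fits, and such joint calls were not counted over all genes. The names above therefore only describe where the calls fell, and a link between stage and HLHS was not tested.

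**Figure D4:**
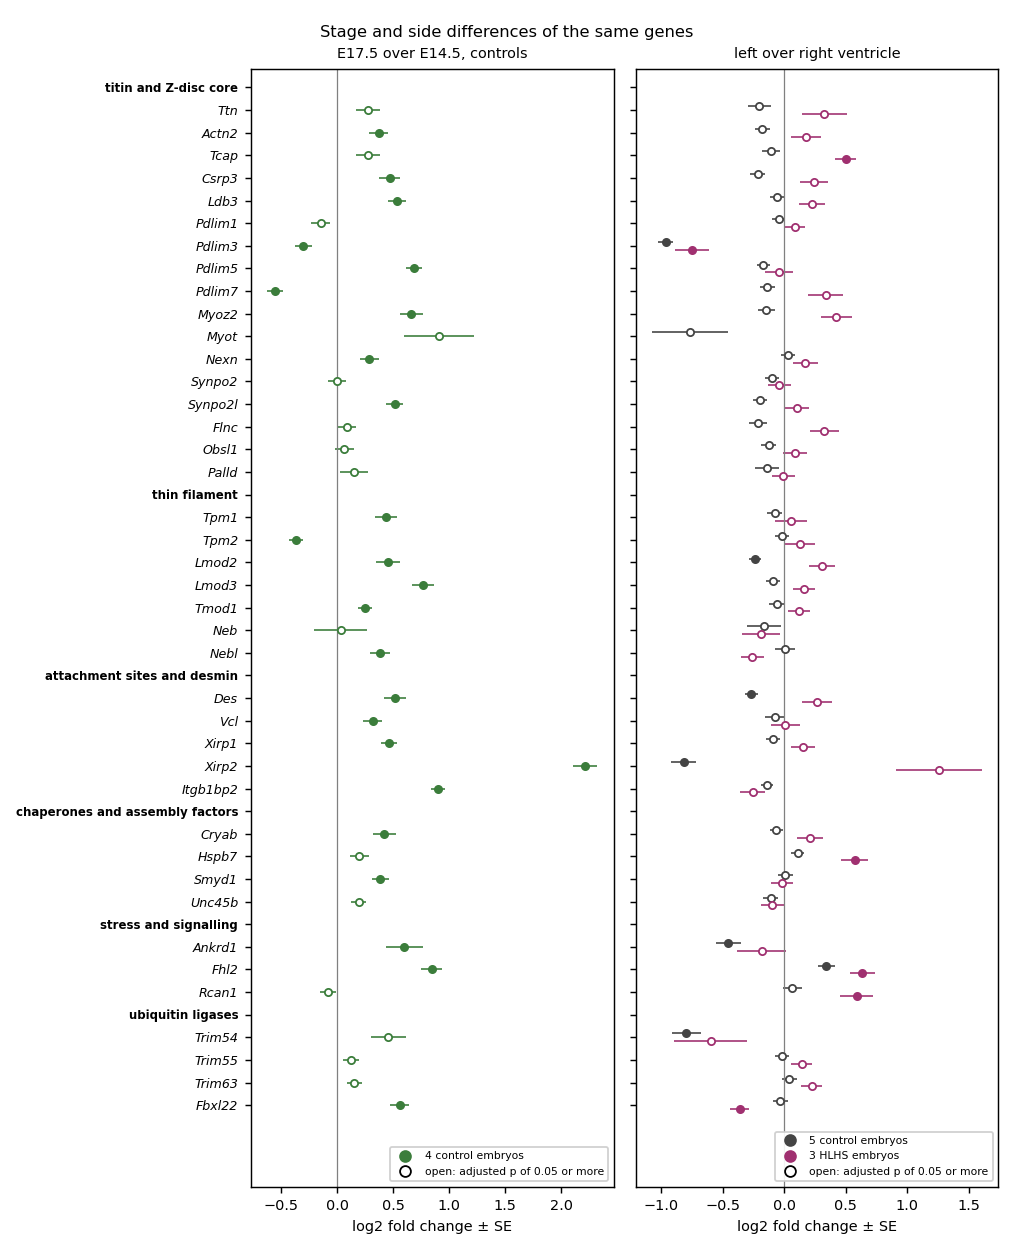
Log2 fold changes with SE for the same 40 members: the left panel shows E17.5 over E14.5 in controls, and the right panel left over right ventricle in 5 controls (dark grey) and 3 HLHS embryos (purple). Filled points have an adjusted p under 0.05. Xirp2 is at 2.21 for stage, and at -0.81 in controls and 1.26 in HLHS for side; Pdlim3 is lower on the left in both groups.

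In controls the left-right difference itself differed between E17.5 and E14.5 for 5 of 40 members, 4 towards the left and 1 towards the right, against 5.17% of 16021 genes (3.86% and 1.31%). Palld (palladin, 0.60 ± 0.10), Neb (nebulin, 0.74 ± 0.18), Vcl (vinculin, 0.44 ± 0.08) and Nebl (0.40 ± 0.09) moved towards the left ventricle, and Ankrd1 (-0.53 ± 0.11) towards the right, with adjusted p of 0.00829, 0.0431, 0.018, 0.0372 and 0.0237 (edgeR). Palld had 360 and 290 CPM left against 458 and 425 right at E14.5, and 388 and 495 against 352 and 443 at E17.5, so it was lower on the left in both E14.5 embryos and higher there in both E17.5 embryos. Neb, with 99 to 281 counts a library, had 7.29 and 4.85 CPM left against 10.7 and 6.46 right at E14.5, and 6.94 and 9.16 against 5.60 and 7.95 at E17.5, with the same turn. None of the 5 calls survived leaving out control 4 or control 5, and the count of members was then 0. It was 9 without control 2, beside 976 of 16315 genes, and 14 without control 3, beside 2459 of 16385 genes.

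Other genes of the same structures were counted from lists of genes that are not members. Among 48 further Z-disc, thin filament and costamere genes tested, 9 were higher and 5 lower in the HLHS left ventricle. Largest were Synm, the intermediate filament partner of desmin (1.29 ± 0.16, adjusted p 0.00184, edgeR), Itga7, the integrin alpha-7 chain (-0.64 ± 0.10, adjusted p 0.0044, edgeR), and Ankrd23, a relative of Ankrd1 (0.63 ± 0.12, adjusted p 0.0114, edgeR). On the right 3 were higher and 7 lower, with Klhl40, which stabilises leiomodin-3 and nebulin, at -1.34 ± 0.17 (adjusted p 0.00663, edgeR) and its relative Klhl41 at -0.66 ± 0.09 (adjusted p 0.00676, edgeR). With stage 15 were higher and 3 lower. Of 19 other sarcomere genes, 0 were higher and 4 lower on the left by edgeR, and 0 higher and 5 lower on the right, and Tnni3, cardiac troponin I, was lower on both sides (-0.52 ± 0.07 and -0.47 ± 0.10, adjusted p 0.00269 and 0.0273, edgeR).

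Of 15 genes listed as SRF, MRTF and YAP regulators or their targets and partners, 5 were higher and 1 lower on the left. The median was 0.28, with 14 of 15 above 0. The 1 lower gene was Srf itself, at -0.31. Its left ventricular levels were 304 CPM against 277 in the HLHS embryo at E13.5. They were 298 and 316 against 233 at E14.5, and 301 and 297 against 234 at E17.5. Tagln and Cnn1 of that list are also smooth muscle markers, and Ccn2 rose by 0.88 ± 0.19 (adjusted p 0.0179, edgeR). On the right 2 were higher and 0 lower by edgeR, with a median of 0.19 and 6 of the 15 at an unadjusted p under 0.05. Across all 7 comparisons, 6 of the 40 members with a fit were called in none.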

How the data were processed

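Total RNA of embryonic ventricles was sequenced from TruSeq libraries, per the labels' protocols. The authors deposited raw read counts for each gene. Build mm9 and the tools HTSeq 0.5.4p5, TopHat2 2.0.9, edgeR 3.4.2 and Picard appear in the submitters' processing notes. The annotation and any use of strand are, in the sources used here, not given, and reads of overlapping or antisense genes cannot be told apart. Symbols were found for 86.6% of 37991 identifiers.

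Groups follow the labels. The test was edgeR 4.0.16 under R 4.3.3 (TMM factors, then glmQLFit and glmQLFTest on genes kept by filterByExpr at min.count 10 and min.total.count 15), over all genes, with stage, which is also litter, as a term for HLHS and the embryo as a block for sides, since both ventricles come from 1 animal. In the stage comparison the ventricles of an embryo were summed. Within groups no pair of libraries agreed within sampling noise (chi-square per degree of freedom at least 7.51), and the differences between control littermates correlated between left and right with an r across genes of 0.331 at E14.5 and 0.37 at E17.5. The fits were tested on simulated data, in which 98.5% to 100% of 2-fold changes were recovered over the 7 comparisons. Of the calls there 4.31% to 9.22% were unchanged genes. Changes were placed only in genes with high mean counts. Recovery of changes smaller than 2-fold, as most of the members have, or in genes with few counts was therefore not tested. Alternatives were DESeq2 1.42.0 and its size factors, limma-voom (limma 3.58.1), other filters, other designs and leaving out each embryo.

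The members and the gene lists were chosen with earlier results of these data known. Members past the threshold are named, or the 12 largest where there are more, and a few others were named after their values were seen to complete a count. CPM levels use TMM factors over all libraries, and exon lengths are from GENCODE M21. P-values measure the spread between these embryos.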

Additional observations from a re-analysis of the deposited data

Results flagged for a closer look

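In 3 of 82 groups of 5 control libraries 1 library stood apart from the other 4 by Dixon's gap ratio, at which chance flags about 1 group in 20. These groups mix stages. Synpo2 in the right ventricle of control 4 was at 6.33 on the log2 CPM scale (80.4 CPM). Flnc in the right ventricle of control 1, the E13.5 embryo, was at 9.99 (1016 CPM), and Trim63 in its left ventricle at 7.17 (143 CPM).

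In 5 members the left-right difference of controls differed between E17.5 and E14.5 in the tested interaction with edgeR: Ankrd1 by -0.53, and Neb by 0.74, Nebl by 0.40, Palld by 0.60 and Vcl by 0.44 on the log2 scale. Each direction rests on 2 embryos of 1 litter per stage. Their adjusted p rose to 0.402, 0.325, 0.488, 0.185 and 0.27 in the least favourable fit that left out 1 embryo.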

How the results depend on the processing

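No member called in a comparison changed direction there under any alternative. Among members not called, 4 to 12 per comparison did so in at least 1 alternative, with changes of up to 0.37 in size in the reported fit. Of those named above with a value, these were on the left Tcap, at up to 0.02 in 4 alternatives, Ttn and Hspb7, at -0.06 and -7e-04 without HLHS embryo 2, and Pdlim5, at 0.07 without HLHS embryo 3. Without the replicate block (stage for HLHS, embryo for sides), the genes and members called were 1 and 0 for HLHS left, 0 and 0 for HLHS right, 9 and 1 for the HLHS difference between sides, 32 and 1 for control sides, 4 and 0 for HLHS sides, and 0 and 0 for the side difference by stage. DESeq2 called 19 members for HLHS right, 134 genes and 8 members for the HLHS difference between sides, and 197 genes for the side difference by stage; its size factors called 3 members there. Limma-voom called 5 genes for the HLHS difference between sides. With no count filter, 1720 genes were called for HLHS right, 217 genes and 8 members for the HLHS difference between sides, 1570 genes for control sides, 1309 for HLHS sides and 510 for the side difference by stage. A sex term left 601 genes and 6 members for HLHS right, and a side-by-stage term gave 171 genes and 6 members for the HLHS difference between sides. The right ventricle alone gave 2905 genes and 16 members for stage. The causes were not tested.

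Leaving out 1 replicate at a time, genes called ranged from 845 to 2309 and members from 9 to 15 for HLHS left, 195 to 1518 and 2 to 13 for HLHS right, 0 to 135 and 0 to 3 for the HLHS difference between sides, 486 to 883 and 3 to 8 for control sides, 270 to 1117 and 1 to 7 for HLHS sides, 3488 to 4531 and 19 to 23 for stage, and 25 to 2459 and 0 to 14 for the side difference by stage. Over the 469 such fits of a named member, 325 kept its side of the threshold, 140 lost the call and 4 gained one. For HLHS left and right, the fits without either E13.5 library both drop that litter but are counted separately here. Of 80 values each, 77 kept their side with DESeq2 size factors, 77 with limma-voom, 79 with a filter of 1 CPM in 3 libraries, and 71 with DESeq2.

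Each stage has 1 HLHS embryo, and whether the HLHS effect varied with stage was not tested. Trim54, Neb and Myot have few counts, which limits the precision of their changes.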
